A study of Mus musculus with 12 samples.

Results

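Gene expression was compared between posterior and anterior epiblast of mouse embryos labelled Dkk-/-, collected at E7.75, on 3 posterior and 3 anterior Illumina bead arrays. The epiblast is the layer of the embryo that forms the body, and at this stage its posterior side carries the primitive streak while its anterior side forms the head. Sample codes name the deleted gene as Dkk1. A probe was included if 3 or more of these 6 arrays gave it a detection p-value below 0.05, whatever its direction of change; 18312 of the 46237 probes on the array met this rule. Of the 18312, 14191 carried 1 gene name and represented 10024 of the 19554 named genes, and 4121 carried none in the tables used here. The other 6 arrays of the study measured the same regions of Dkk+/+ embryos (controls, 3 arrays a region, E7.75) and served here as a separate set on which to read the same genes. By their labels, both knockout groups carry the same genotype and differ in region. No slide or run was given in the labels used here, so a difference of that kind between the regions cannot be told apart. The labels do not state strain, the allele, how many embryos were pooled on an array, which arrays share embryos, or how the boundary between the regions was set. The p-values therefore reflect the spread of these arrays alone, and how far it is technical is not stated. Y-linked Eif2s3y was at background on replicate 3 of both knockout regions, and not on the other replicates. The replicates of a region are thus not all repeats of 1 sample.

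In the mouse gastrula, Wnt, Nodal, BMP and FGF signals from the primitive streak pattern the posterior epiblast, and caudal (Cdx) and Hox genes are switched on there as the trunk forms. The anterior epiblast is kept free of high Wnt activity by secreted inhibitors from the anterior endoderm and midline. Dkk1 is such an inhibitor; it binds the Wnt co-receptors Lrp5 and Lrp6, and mouse embryos without it lack the front of the head.

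The Dkk1 probe was read first. On the log2 scale of normalized intensity it gave 6, 6.27 and 6.17 in knockout anterior arrays and 4.74, 4.31 and 4.46 in knockout posterior arrays. It was detected on every anterior array and on no posterior array, and the anterior level was at least 2.26-fold higher (fitted log2 change -1.64, SE 0.16, limma adjusted p = 4.4e-05). Control arrays read 6.1, 5.78 and 6.06 in anterior and 5.05, 5.12 and 4.64 in posterior epiblast. The arrays labelled knockout were thus not lower than the controls in the anterior region, and the probe's place relative to the deleted part was not stated, so it neither checks nor contradicts the genotype labels. Here and below, folds written as at least are lower bounds for genes undetected throughout a group, computed with each of its arrays raised to the lowest signal that array detected.

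The arrays were unequal in brightness. Mean raw signal was between 439 and 447 on the anterior arrays and was 523, 189 and 301 on posterior replicates 1, 2 and 3, with 36.2% to 41.6% of probes detected per array. Posterior replicate 2 was the dimmest of all 12 arrays and detected the fewest probes. The median SD of a gene over 3 arrays was 0.184 (log2) in the anterior and 0.195 in the posterior group. The pluripotency factor Pou5f1, which marks epiblast, was detected on all 6 arrays, and so were the visceral endoderm products Ttr (13.83, 14.11 and 13.84 anterior, 13.49, 13.52 and 13.53 posterior) and Apoa1. Transcripts typical of the endoderm that overlies the epiblast were thus present in both regions. In tissue samples of this kind fewer cells of a type and less RNA per cell cannot be told apart.

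Of the 10024 genes, 905 (9.03%) differed between the regions at a Benjamini-Hochberg adjusted p under 0.05 (limma). Of these, 401 (4%) were higher and 504 (5.03%) lower in posterior epiblast. Large rises outnumbered large falls: 159 genes rose and 97 fell by more than 1 on the log2 scale, and 42 rose and 11 fell by more than 2. The median change was 0.88 among genes called higher, -0.75 among genes called lower and -0.009 among all genes. In 898 of the 905 genes the posterior and anterior arrays did not overlap, as was the case in 27.2% of all genes tested. Counted by probe, 520 rose and 737 fell (6.86% of 18312), among them 78 and 161 probes without a gene name. Among the genes tested, 45 were detected on all 3 posterior and no anterior array, and 90 the other way round; 37 and 50 of these were called, but such genes entered through 1 region alone, so their counts describe the selection. Without posterior replicate 2 there were 621 called genes (313 higher, 308 lower), of which 538 were among the 905. Without anterior replicate 2 the count was 592 and without anterior replicate 3 it was 552. Fitting the 6 knockout arrays alone gave 320, and 157 with the replicate number as a block. A random block over all arrays gave 989, and median scaling over all probes gave 42.

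**Figure D1:**
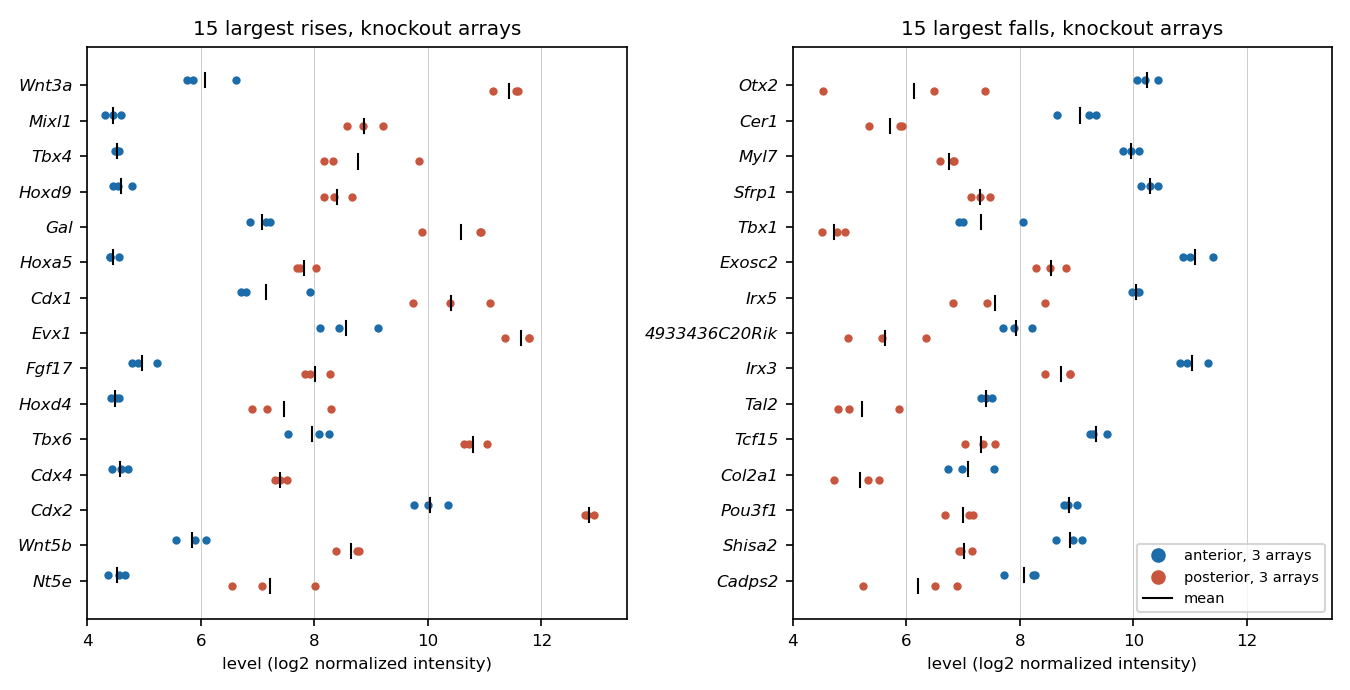
Level (log2 normalized intensity) of the 15 genes with the largest rise and the 15 with the largest fall in posterior epiblast, with 1 point per knockout array, blue for anterior and red for posterior, and a black bar at the group mean. Genes were picked among those whose groups do not overlap, and the posterior values of Otx2 spread from 4.54 to 7.38.

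The posterior epiblast was marked by genes of the primitive streak and the caudal body. Of 20 tested genes of a primitive streak list, 16 were higher and none was lower, with a median log2 change of 1.69 against -0.009 for all genes. Here and in every list below, the count is to be read against the 9.03% of all genes that were called. Wnt3a, a ligand of the streak and tail bud, had the largest rise of all genes. It read 5.86, 5.76 and 6.62 in anterior and 11.55, 11.14 and 11.58 in posterior arrays. The lowest posterior array stood far above the highest anterior one, a change of 40.5-fold (log2 5.34, SE 0.24, adjusted p = 6.4e-08). Mixl1, a homeobox gene of the streak and nascent mesendoderm, was not detected on any anterior array (4.32, 4.45 and 4.59) and read 8.85, 8.58 and 9.21 in posterior arrays, at least 15.8-fold higher (adjusted p = 2.7e-08).

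The 3 caudal genes, which activate Hox genes in the forming trunk, rose together. Cdx2 read 10, 9.75 and 10.36 in anterior and 12.92, 12.81 and 12.77 in posterior arrays (log2 change 2.8, SE 0.15). Cdx1 rose by 3.27 (SE 0.41), with the widest spread of the 3 (9.74, 11.1 and 10.39 in posterior arrays), and Cdx4, undetected in the anterior region, was at least 5.67-fold higher. Evx1, a homeobox gene of the proximal streak, rose by 3.09 (SE 0.32), from 8.44, 8.1 and 9.12 to 11.79, 11.36 and 11.79. The streak FGFs Fgf17 and Fgf8 rose by 3.05 and 1.57, Nkx1-2, a marker of the caudal epiblast, by 2.27, and Fst, which encodes the activin inhibitor follistatin, by 2.11. Smaller rises were measured for Mesp1, an early mesoderm factor of the heart lineage (0.91, adjusted p = 0.044), and Snai1, which represses E-cadherin during ingression (0.87).

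The 4 streak genes without a call were Eomes (-0.61), Lhx1 (-0.17), Greb1 (0.07) and Gsc (0.3, SE 0.19, adjusted p = 0.37). Gsc, an organizer gene of the anterior streak and prechordal plate, read 5.08, 5.57 and 5.11 in anterior and 5.78, 5.13 and 5.77 in posterior arrays, so the groups overlapped. T (brachyury) carried no named probe and was not measured here. Wnt3 was detected on 2 posterior arrays and no anterior one, below the entry threshold.

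**Figure D2:**
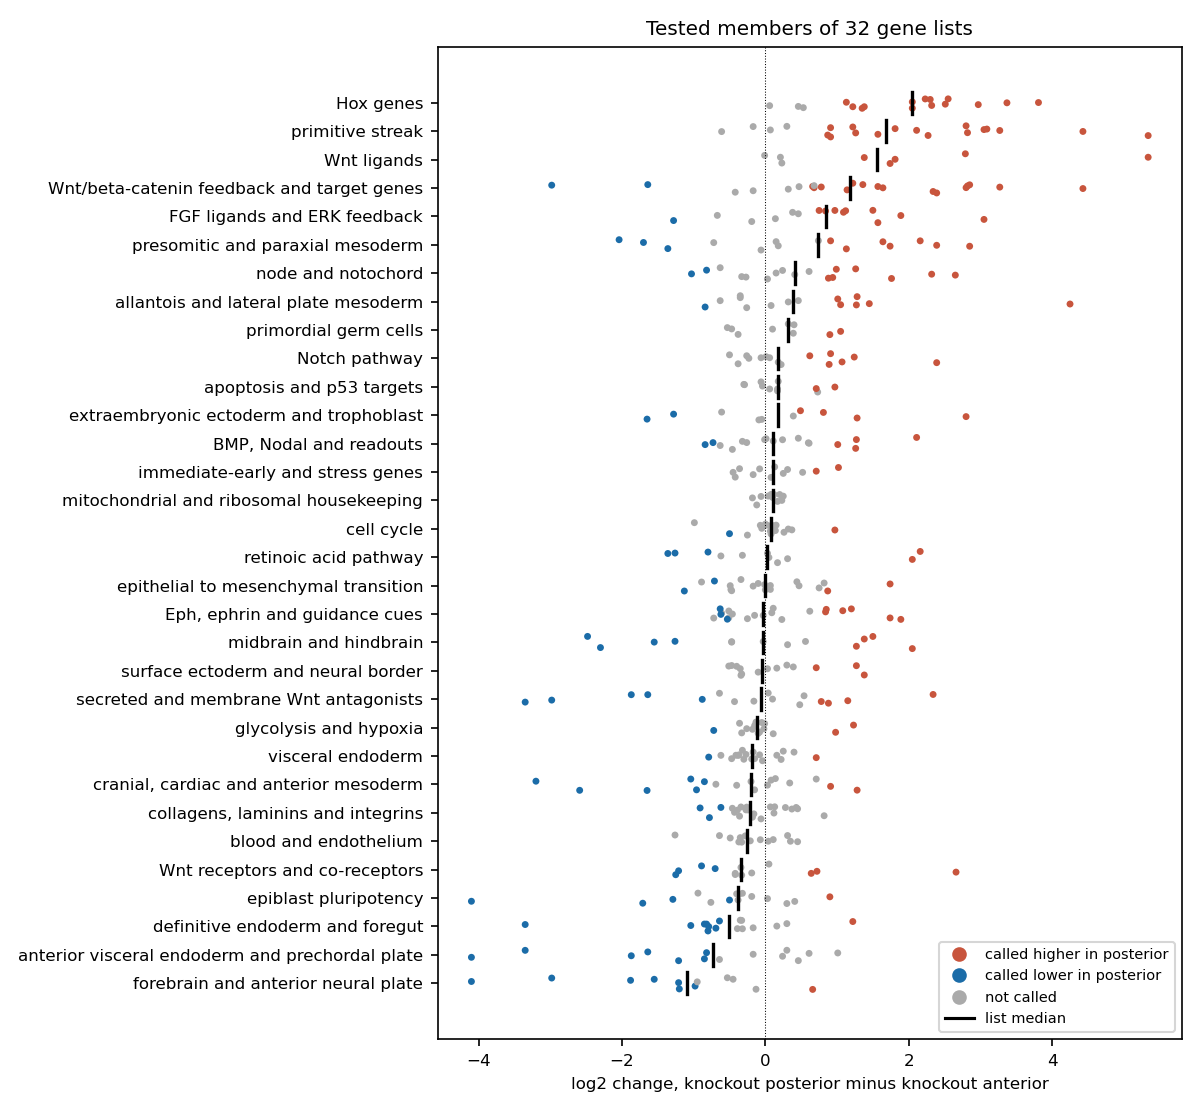
Log2 change from knockout anterior to knockout posterior arrays for each tested member of 32 gene lists, with points coloured by call and a black bar at each list's median, sorted by median. Hox genes (median 2.05) and primitive streak genes (1.69) lie at the posterior end, and forebrain (-1.09) and anterior endoderm genes (-0.73) at the anterior end.

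Wnt signalling genes differed in both directions. Of 22 tested feedback and target genes of the beta-catenin pathway, 15 were higher and 2 lower (median 1.18). Axin2, a scaffold of the complex that degrades beta-catenin and a widely used readout of the pathway, read 9.19, 9.37 and 9.04 in anterior and 10.48, 10.55 and 10.65 in posterior arrays (log2 change 1.36, SE 0.12, adjusted p = 1.2e-05). Lef1, a transcription factor through which beta-catenin acts, rose by 1.14 (SE 0.2), and Notum, an enzyme that inactivates Wnt proteins, by 2.34 (SE 0.19). Sp5, a zinc finger factor and direct target of the pathway, had nearly identical values within each region. Anterior arrays read 10.77, 10.73 and 10.75 and posterior arrays 11.98, 11.99 and 11.93, a change of 1.22 (SE 0.11, adjusted p = 1.4e-05). The 2 genes lower in posterior epiblast were Dkk1 and Sfrp1, which are themselves Wnt antagonists.

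The 250 bases upstream of the start of Sp5 (chr2:70474673-70474922, plus strand, GRCm38.p6, RefSeq) are shown because Sp5 was the 1 gene, of the 9 Wnt targets called higher with such a window, that held a TCF/LEF core. The capitals mark CTTTGA, the core of the site bound by TCF/LEF factors, searched on both strands.

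Sp5: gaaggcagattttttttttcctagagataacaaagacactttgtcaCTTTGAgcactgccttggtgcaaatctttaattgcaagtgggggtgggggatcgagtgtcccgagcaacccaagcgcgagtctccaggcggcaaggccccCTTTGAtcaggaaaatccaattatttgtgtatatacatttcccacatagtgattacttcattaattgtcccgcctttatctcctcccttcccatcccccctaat

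The matches begin 204 and 104 bases before the start. The other 6 of the 15 Wnt targets called higher had no window in the RefSeq table. The core stood in 11.8% of the windows of genes called higher (36 of 304), 12.2% of those called lower (45 of 370), 10.9% of all genes tested and 14% of all genes in the table. TAATCC, the core bound by Otx-type homeodomain proteins, stood in 3.29%, 4.86%, 5.2% and 6.38% of the same sets. A match describes letters and is no evidence of binding.

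Among Wnt ligands, 5 of 8 tested genes rose and none fell. Beside Wnt3a these were Wnt5b (log2 change 2.79), Wnt8a (1.81), Wnt5a (1.74) and Wnt6 (1.38). Wnt5b, which signals mainly without beta-catenin, read 6.09, 5.56 and 5.89 in anterior and 8.39, 8.78 and 8.75 in posterior arrays. Receptors split by gene. Fzd10 read 7.71, 7.86 and 7.83 in anterior and 10.13, 10.91 and 10.35 in posterior arrays (log2 change 2.66, SE 0.18). In contrast, Fzd7 (-1.25), Fzd5 (-1.21), Fzd2 (-0.89) and Fzd8 (-0.7) were lower, although another Fzd5 probe changed by -0.17 only. The co-receptors Ror2 and Ptk7, which act in planar polarity, rose by 0.64 and 0.72. Of 16 antagonists, 4 were higher and 5 lower, with a median of -0.06. Cer1, Sfrp1, Shisa2, Dkk1 and Sfrp2 were lower, and Notum, Dkk4, Draxin and Apcdd1 higher. Sfrp1, a secreted decoy for Wnt, read 10.43, 10.29 and 10.14 in anterior and 7.48, 7.14 and 7.3 in posterior arrays (log2 change -2.98, SE 0.16, adjusted p = 2.2e-07).

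FGF signalling showed 9 higher and 1 lower of 15 tested genes (median 0.84). Beside Fgf17, Fgf8, Fgf15 (1.5) and Fgf3 (0.84), the rises were in genes that respond to ERK: the ETS factors Etv4 (1.89) and Etv5 (0.97) and the feedback inhibitors Spry4, Il17rd and Dusp6. Etv4 read 7.29, 6.91 and 7.44 in anterior and 9.13, 9.12 and 9.07 in posterior arrays. The receptor Fgfr2 was lower by 1.28 on the log2 scale (fitted change -1.28, SE 0.15), while its other probe changed by -0.45. Of 15 Notch pathway genes, 6 were higher and none lower (median 0.18), led by the ligand Dll1. It read 7.2, 7.01 and 7.27 in anterior and 9.46, 9.64 and 9.54 in posterior arrays (log2 change 2.39, SE 0.15). Nrarp (1.24), a feedback inhibitor, Hes3 (1.07) and the ligand Dll3 (0.91) followed. BMP and Nodal genes gave 4 higher and 2 lower of 17 (median 0.11). Bmp4 rose by 1.01 (SE 0.12), from 10.02, 9.96 and 10.09 to 11.1, 11 and 11, and its readout Msx1 by 1.27. Nodal rose by 1.26. Id2 and Bmp5 were lower.

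Hox genes had the highest median of the 33 lists (2.05). Of 17 tested members of the list, 14 were higher and none lower, and another 11 were not detected on enough arrays. Hoxd9 read 4.46, 4.54 and 4.78 in anterior arrays, all below detection, and 8.67, 8.17 and 8.35 in posterior arrays, at least 11.3-fold higher (adjusted p = 1.4e-07). Hoxa5 (4.4, 4.56 and 4.4 against 7.74, 8.03 and 7.69) was at least 7.58-fold higher, and Hoxd4 at least 5.89-fold. Members of all 4 clusters were called. In the b cluster the fitted changes were 2.05 for Hoxb1, 1.13 for Hoxb2, 1.22 for Hoxb4, 1.35 for Hoxb5, 2.3 for Hoxb6 and 2.55 for Hoxb7. Hoxb2 read 8.84, 9 and 9.07 in anterior and 9.72, 10.4 and 10.2 in posterior arrays. Hoxd1 (0.06), Hoxa13 (0.46) and Hoxa4 (0.53) were not called. Hoxc10 (-0.04) and Hoxd11 (-0.28), which were tested but are not in the list, were not called either, so 14 of all 19 Hox genes tested were higher. The order of changes along a cluster was not tested, and a probe pinned at background in anterior arrays understates the change.

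**Figure D3:**
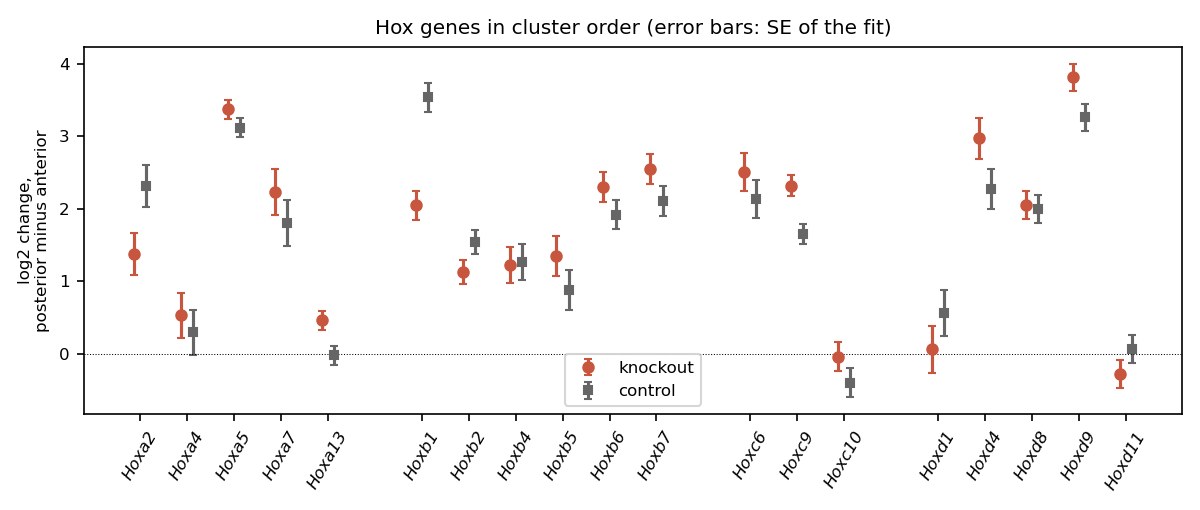
Log2 change from anterior to posterior epiblast with its SE for Hox genes in cluster order, for knockout arrays (red circles) and control arrays (grey squares). Hoxd9 has the largest knockout value (3.81), and Hoxb1 changes by 2.05 in knockout and 3.54 in control arrays.

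In the presomitic and paraxial list 7 of 15 tested genes were higher, 3 lower and 5 not called (median 0.74). Tbx6, required for paraxial mesoderm, read 8.26, 7.54 and 8.08 in anterior and 10.73, 10.64 and 11.04 in posterior arrays, a 7.19-fold rise. Aldh1a2, which makes retinoic acid in trunk mesoderm, rose by 2.16, and Rspo3, a Wnt-enhancing ligand, by 1.64. The 3 lower genes were Tcf15, Foxc2 and Cyp26a1. Tcf15 and Foxc2 are factors of paraxial mesoderm and somites, and Cyp26a1 degrades retinoic acid. Cyp26a1 changed by -1.36, and by -0.42 on its other probe. Tcf15 read 9.53, 9.29 and 9.23 in anterior and 7.35, 7.03 and 7.56 in posterior arrays (log2 change -2.04, SE 0.33, adjusted p = 0.0023). Foxc2 read 8.65, 9.34 and 8.91 against 7.21, 6.87 and 7.71 (-1.7, SE 0.23, adjusted p = 0.00061). Meox1 (0.74) was not called. Its highest value, 9.28, was on anterior replicate 2, where its other anterior values were 7.74 and 7.1.

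Cranial and cardiac mesoderm gave 2 higher, 6 lower and 9 not called of 17 (median -0.2). Myl7, a myosin light chain of the heart, fell most. It read 9.95, 9.82 and 10.1 in anterior and 6.84, 6.6 and 6.82 in posterior arrays, a 9.19-fold difference (adjusted p = 7.8e-07). Tbx1, a pharyngeal mesoderm factor, read 6.93, 8.05 and 6.99 in anterior arrays and was undetected in posterior arrays (4.77, 4.51 and 4.92), at least 5.12-fold lower. Mef2c (-1.65), Gata6 (-1.04), Smarcd3 (-0.96) and Nkx2-5 (-0.85), all heart regulators, were also lower, and Mesp1 and Hand1 were higher. Anterior replicate 2 had the highest level of Tbx1, Mef2c, Gata6 and Foxc2 of the anterior arrays; without it Tbx1 changed by -2.23 and stayed called.

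Genes of the allantois and lateral plate gave 6 higher and 1 lower of 14 (median 0.39). Tbx4, a T-box gene of the allantois, was undetected on every anterior array (4.53, 4.56 and 4.48) and read 8.32, 9.84 and 8.17 in posterior arrays, at least 14.7-fold higher. A second Tbx4 probe changed by 1.23. Foxf1 (1.45), Hand1 (1.28), Msx1 and Bmp4 rose by smaller amounts. No gene of the blood and endothelium list was called among 14 (median -0.25), with 3 at an unadjusted limma p under 0.05. Hbb-bh1, an embryonic globin, changed by -1.26 with an SE of 0.71 and overlapping arrays. Summed linear intensity of that list was 5022 to 7125 in anterior and 4813 to 5416 in posterior arrays. Hbb-y, Tie1, Fli1 and Erg were detected on none of the 6 arrays. The globin gene Hba-x was detected on 2 posterior arrays and no anterior one. Gata1 and Cd34 were each detected on 1 anterior array and no posterior one, and Cdh5 on 1 array of each region.

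Of 17 tested genes of the node and notochord list, 7 were higher, 2 lower and 8 not called (median 0.41). Dynlrb2, a dynein light chain of motile cilia, read 5.84, 5.81 and 4.6 in anterior and 8.23, 7.92 and 8.06 in posterior arrays (log2 change 2.65, SE 0.37, adjusted p = 0.00071). Fam183b, a protein of motile cilia, went from 6.4, 6.95 and 5.43 to 8.72, 8.42 and 8.6 (2.32, SE 0.45), and Cfap126, a cilium-associated protein, from 5.94, 5.78 and 5.66 to 7.48, 7.84 and 7.33 (1.76, SE 0.28). Pifo (0.99), which acts at the base of cilia, Tppp3 (0.94) and Noto (0.88), the homeobox gene of the node, also rose. The last of the 7 was Nodal (1.26), the only 1 of them also called higher in control arrays (0.9, limma adjusted p = 0.002). Foxj1, the master regulator of motile cilia, changed by 0.41 and was not called (adjusted p = 0.18). Shh, the midline signal, and Foxa2, the floor plate and endoderm factor, were lower, by -1.03 (adjusted p = 0.023) and -0.82 (adjusted p = 0.045). The call of Foxa2 was lost without posterior replicate 2 (adjusted p = 0.1) and in 17 of 26 settings in all.

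In control arrays none of the 6 genes from Dynlrb2 to Noto was called. Dynlrb2 changed there by 0.28, Fam183b by 0.47, Cfap126 by 0.2, Pifo by 0.07, Tppp3 by 0.04 and Noto by 0.08. Control anterior levels were spread, as for Dynlrb2 at 6.47, 7.63 and 7.74, and lay above all 3 knockout anterior arrays for this gene. The difference between genotypes had an unadjusted limma p of 0.00061 for Dynlrb2 and 0.0022 for Noto, and none of the 6 passed after adjustment over all genes (0.28 for Dynlrb2, 0.42 for Cfap126, 0.45 for Noto, 0.66 for Pifo, 0.71 for Fam183b and 0.72 for Tppp3). The labels do not say where the dissection cut lay relative to the node, and its part in the result was not tested.

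**Figure D4:**
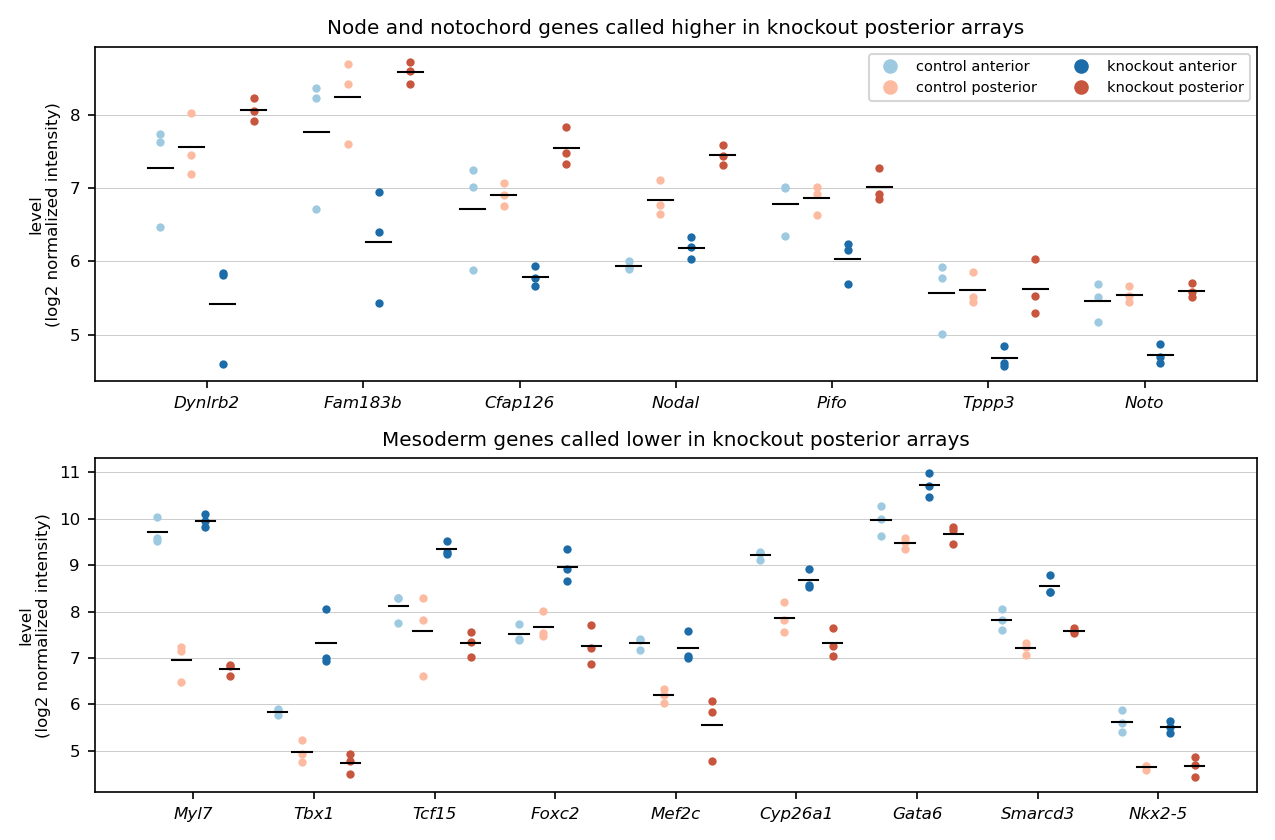
Level (log2 normalized intensity) on each of the 12 arrays for node and notochord genes called higher (top) and for mesoderm genes called lower (bottom) in knockout posterior epiblast, with 1 point per array and a black bar at each group mean. For Dynlrb2 the knockout anterior arrays (4.6 to 5.84) lie below the other 9, and for Tbx1 the knockout anterior arrays (6.93 to 8.05) lie above them.

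The anterior epiblast was marked by genes of the neural plate. Of 12 tested genes of the forebrain and anterior neural plate list, 7 were lower in posterior epiblast and 1 was higher, with a median of -1.09. Otx2, the homeobox gene required for forebrain and midbrain, had the largest fall of all genes. Anterior arrays read 10.44, 10.06 and 10.2 and posterior arrays 7.38, 4.54 and 6.49, a 17.1-fold difference (log2 change -4.1, SE 0.49, adjusted p = 2e-04). Posterior replicate 2, the dim array, did not detect it; without that array the change was -3.3 (adjusted p = 3.4e-06). Pou3f1, a POU factor of early neural cells, read 8.84, 9.01 and 8.77 against 7.18, 6.69 and 7.11 (-1.88, SE 0.18). Foxd4 fell by 1.55 on the log2 scale, Fzd5 by 1.21 (its other probe changed by -0.17) and Otx1 by 0.98. Lhx5, undetected in posterior arrays, was at least 1.72-fold lower.

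Sox2, the pan-neural factor, was not called (6.5, 5.27 and 6.09 against 5.31, 5.26 and 5.68, log2 change -0.53, adjusted p = 0.28), although a second Sox2 probe changed by -1.31. The exception in direction was Sp8, which rose by 0.66. The forebrain genes Hesx1 and Six3 did not enter the comparison: Hesx1 was detected on 1 of the 6 arrays and Six3 on none. Rax, Lhx2, Pax6, Fezf1, Vax1, Zic1, Sox1 and Emx2 were likewise detected on none. Six6, also below the entry threshold, was detected on 2 posterior arrays and no anterior one. It read 4.32, 4.31 and 4.34 in anterior and 4.91, 5.39 and 4.51 in posterior arrays.

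In the midbrain and hindbrain list, 4 genes were higher and 4 lower of 13, and the median was -0.03. Of 4 Iroquois genes tested, Irx1, Irx3 and Irx5 were lower and Irx2 was not called (-0.47, adjusted p = 0.07). Irx3 read 11.32, 10.83 and 10.95 in anterior and 8.88, 8.44 and 8.88 in posterior arrays (-2.3, SE 0.18, adjusted p = 7.4e-06), Irx5 read 9.98, 10.1 and 10.07 against 8.45, 6.83 and 7.42 (-2.48, SE 0.29), and Irx1 changed by -1.55. Meis1, a Hox cofactor, was lower by 1.26 on the log2 scale (fitted change -1.26). Gbx2, Hoxa2, Hoxb1 and Fgf15, which are hindbrain genes also active in the caudal epiblast, were higher.

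Of 14 genes of the anterior visceral endoderm and prechordal plate list, 7 were lower, none higher and 7 not called (median -0.73). Cer1, a secreted inhibitor of Nodal, BMP and Wnt, read 9.21, 8.65 and 9.34 in anterior and 5.88, 5.35 and 5.92 in posterior arrays, a 10.2-fold difference (adjusted p = 1e-06), and a second probe changed by -2.5. Shisa2, which retains Wnt and FGF receptors in the endoplasmic reticulum, fell by 1.87 and Hhex, a homeobox gene of anterior endoderm, by 0.85. Definitive endoderm and foregut genes gave 8 lower and 1 higher of 16 (median -0.51), the higher one being Sp5, which is also a streak gene. Trh, Cxcr4 and Rab15 were among the lower ones. Visceral endoderm gave 1 lower (Hnf4a, -0.79) and 1 higher (Cited1, 0.71) of 19 (median -0.19), a share of 10.5% that is near the 9.03% of all genes, and the call of Cited1 was lost in 10 of 26 settings. Summed intensity of the visceral endoderm list was 77562 to 85156 in anterior and 67807 to 74049 in posterior arrays, which do not overlap; Alb and Fgb were detected on none. The part of unequal endoderm content in the endoderm results was not tested.

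Pluripotency genes gave 4 lower and 1 higher of 15 (median -0.38). Pou5f1 rose from 11.71, 10.77 and 11.42 to 12.24, 12.21 and 12.15 (0.9, SE 0.19, adjusted p = 0.011), and a second probe rose by 1.22. Slc7a3, an amino acid transporter, read 10.73, 10.49 and 10.49 in anterior and 9.03, 8.67 and 8.87 in posterior arrays (fitted change -1.71). Its other probe changed by -0.18, so the size of the fall depends on the probe. Utf1 (-1.29) and Sall4 (-0.5) were lower as well. Fgf5, a marker of the primed epiblast, was not called (-0.19, SE 0.32). Dppa4 read 5.39, 5.64 and 6.72 against 4.64, 5.23 and 5.07 and was not called (-0.94, adjusted p = 0.13), and in control arrays it changed by -2.73; the difference between genotypes did not pass (1.79, SE 0.51, adjusted p = 0.54). Germ cell genes gave 2 higher of 9, Ifitm3 (1.05) and Pou5f1, and the specifying factors Prdm1, Prdm14 and Nanos3 were detected on none of the 6 arrays. Dppa3, below the entry threshold, was detected on 1 knockout posterior array (6.09, 4.97 and 4.83) and on no knockout anterior array (4.44, 4.26 and 4.48). In controls it was detected on all 3 posterior arrays and on no anterior one.

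Further genes with large changes belong to none of these lists. Gal, which encodes the neuropeptide galanin, read 7.21, 7.15 and 6.87 in anterior and 10.93, 9.89 and 10.91 in posterior arrays, an 11.3-fold rise (adjusted p = 4.6e-05). Nt5e, a cell-surface nucleotidase, was undetected in anterior arrays and at least 4.99-fold higher. Hdc, the enzyme that makes histamine, rose from 5.27, 5.45 and 5.03 to 7.15, 7.4 and 7.2 (2, SE 0.21). Among the falls were Tal2, a basic helix-loop-helix factor (-2.19), Col2a1, a collagen of the notochord and cartilage (-1.9), Cadps2, a factor of vesicle release (-1.86), and the unannotated transcript 4933436C20Rik (-2.32). Exosc2, a subunit of the RNA exosome, fell by 2.54 on its brightest probe, but its other probe changed by 0.44, so the gene's direction depends on the probe. Of the 251 called genes with more than 1 probe, 194 had all other probes on the same side.

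Control arrays, which share no sample with the knockout arrays, were read for the same genes. There 298 genes (2.97%) were higher and 257 (2.56%) lower in posterior epiblast, 5.54% of 10024 in all. Of the 401 genes higher in knockout posterior epiblast, 386 (96.3%) had a positive change in controls, against 51.5% of all genes, and 213 were called there, which is 53.1% of the knockout and 71.5% of the control calls. Of the 504 lower genes, 466 (92.5%) had a negative change in controls and 143 were called (28.4% and 55.6%). None was called in opposite directions. Both contrasts came from the same fit, with joint normalization and a shared variance for each gene, so the calls in the genotypes are not independent. The median control change was 0.68 for the higher and -0.42 for the lower genes, beside knockout medians of 0.88 and -0.75; the latter were chosen on the knockout arrays, which alone would make them larger.

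Whether the regional difference itself differed between genotypes was tested as an interaction. A single gene passed (0.00998% of 10024; 621 had an unadjusted p under 0.05). Rhbg, an ammonium transporter, read 6.23, 6.07 and 6.09 in anterior and 6.58, 6.44 and 6.58 in posterior arrays labelled knockout, and 4.67, 4.85 and 4.7 against 6.58, 6.66 and 6.51 in controls. Only 1 of the 3 control anterior arrays detected Rhbg, so these values lay near background and limit the size of the control change. The posterior levels overlapped, and the anterior level was higher in the arrays labelled knockout (difference of changes -1.44, SE 0.16, limma adjusted p = 0.0077). It passed in 21 of 27 other settings; the 6 in which it failed were the replicate block, both median scalings, the series matrix values, an offset of 50 and uncorrected background. The next genes by p did not pass. Shisa2 differed by 1.47 (adjusted p = 0.096), and Hdc, Foxc2, Fst, Odf3b, Gsc, Sp5, Fzd5 and Hoxb1 had adjusted p-values between 0.15 and 0.16. The change was 1.22 in knockout and 2.02 in control arrays for Sp5, 2.11 and 3.57 for Fst, and 2.05 and 3.54 for Hoxb1. Sp5 read 9.53, 9.48 and 9.69 in control anterior arrays against 10.77, 10.73 and 10.75 in knockout anterior arrays. Foxc2 changed by 0.17 in controls and Odf3b, named for a sperm tail fibre, by 0.43 (1.92 in knockout arrays). The other Odf3b probe changed by 0.44 in knockout arrays.

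Some trophoblast transcripts that did not enter the comparison were at unequal levels in the anterior groups. Elf5, a trophoblast transcription factor, read 7.25, 7.33 and 6.85 in control anterior arrays and 4.69, 4.32 and 6.4 in knockout anterior arrays. Wnt7b, a Wnt ligand also made in the placenta, read 7.22, 7.48 and 6.53 against 4.49, 4.78 and 6.35. Both were detected on all 3 control anterior arrays and on 1 knockout anterior array, and knockout anterior replicate 3 had the highest value of its group for both. Rhox9, an X-linked homeobox gene of the placenta, read 5.21, 5.66 and 5.55 in control anterior arrays and was detected on all 3 of them and on no knockout array. Control posterior arrays read 4.36, 4.31 and 4.37 for Elf5. The part of unequal extraembryonic tissue in the interaction was not tested.

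**Figure D5:**
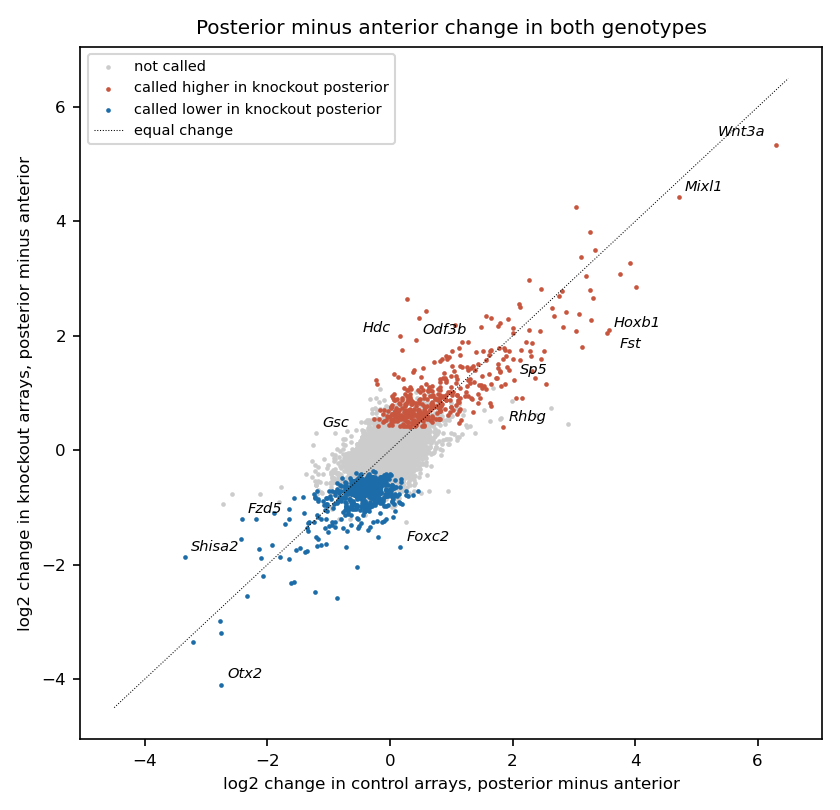
Log2 change from anterior to posterior epiblast in control arrays (x axis) and knockout arrays (y axis) for each of the 10024 genes, coloured by the call in knockout arrays, with a dotted line where both changes are equal. The 10 genes with the smallest p for the difference are labelled with Wnt3a, Mixl1 and Otx2, and Rhbg lies at 1.84 in control and 0.4 in knockout arrays.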

How the data were processed

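The deposited table holds raw probe intensity, with no scaling between arrays, and a detection p-value for each probe and array, per the file headers. GenomeStudio produced it, per the submitters' processing notes; its version and the array model were not stated. The deposited series matrix holds log2 values and served as an alternative. The neqc function of limma 3.58.1 (R 4.3.3) was applied with an offset of 16: background correction by normexp, quantile normalization and log2. Genes were named through the deposited probe table and RefSeq GRCm38.p6 (30058 of 46237 probes), and the brightest included probe represented a gene. A linear model with 4 group means over 12 arrays was fitted, with moderated variances and Benjamini-Hochberg adjustment over 10024 genes at 0.05. All adjusted p-values are limma's. The code was tested on simulated data. Named genes were Dkk1, the 15 largest rises and 15 largest falls with separate arrays, 28 preset genes, up to 4 called members per list by size, and the 10 smallest p-values of the interaction; a few further list members and the counter-examples were named after their values were seen. Members, the 33 gene lists and tests were chosen with earlier results of these data known. Lists overlap in membership. The number of arrays limits the precision.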

Additional observations from a re-analysis of the deposited data

Results flagged for a closer look

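Rhbg, an ammonium transporter, was picked out because its change from anterior to posterior epiblast differed between genotypes by the interaction test: -1.44 on the log2 scale (knockout 0.4, control 1.84, SE 0.16, adjusted p = 0.0077 by limma). All 3 knockout anterior arrays (6.07 to 6.23) lay above all 3 control anterior arrays (4.67 to 4.85). Only 1 of these control arrays detected Rhbg, so its level there lay near background, which limits the size of the control change. The difference passed in 21 of 27 other settings; it failed with the replicate block, both median scalings, the series matrix values, an offset of 50 and uncorrected background. The cause was not tested.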

How the results depend on the processing

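The count of 905 genes depended on the scaling and the fit. Median scaling over probes detected on all arrays gave 509 genes (334 higher, 175 lower, median of all genes 0.116) and 635 probes, against 1257 probes in the main setting, and moved the share of higher calls from 44.3% to 65.6%. Median scaling over all probes gave 42 genes (18 higher, 24 lower, median of all genes -0.562) and 45 probes. The knockout arrays alone gave 320 genes (191 higher, 129 lower) and 326 probes, with fewer degrees of freedom. Leaving out 1 array gave 552 to 922 genes and 687 to 1282 probes; by probe the counts without anterior replicates 2 and 3 and without posterior replicate 2 were 774, 687 and 733. Leaving out replicate 2 of both knockout groups, chosen after seeing the data, gave 570 genes and 730 probes. The other settings gave 723 (cyclic loess, 51.5% higher) to 1151 genes. With the replicate number as a replicate block, 157 genes (114 higher, 43 lower) and 124 probes were called; as a random block 989 and 1302. The fixed replicate block removed the call of 35 of the 102 named genes and the random block of none. The numbers were not taken as pairs: same-numbered anterior and posterior arrays deviated together with correlations of -0.029, -0.117 and 0.061 in knockouts and 0.061, 0.247 and 0.256 in controls, and not every array correlated best with its own number. For Eif2s3y, Kdm5d and control Xist, however, the array at background had the same number in both regions.

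Scaling moved the medians of the lists with that of all genes. Under median scaling over all probes the presomitic (-0.02), allantois (-0.11), BMP and Nodal (-0.17), Notch (-0.29), germ cell (-0.31) and trophoblast (-0.39) medians turned negative. Relative to all genes the Hox (2.04), streak (1.54), Wnt target (1.12), presomitic (0.54), forebrain (-0.74) and anterior endoderm (-0.34) medians kept their sign there.

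The interaction called 1 gene, Rhbg, in the main setting. It called 4 genes other than Rhbg without background correction, 4 with the series matrix values and 1 with an offset of 50. With Rhbg included, it called 3 with cyclic loess, 2 with detection on all 6 knockout arrays, 21 when arrays were weighted, 11 with trended and robust variances, and 2 without replicate 2 of both knockout groups. It called 0 with either median scaling (506 and 70 genes at an unadjusted p under 0.05) and 0 with the replicate block (615). Leaving out 1 array gave 1 to 4, namely 4 without control anterior replicate 1, 3 without knockout anterior replicate 3 and 2 without knockout posterior replicate 2. The series matrix values and uncorrected background gave the same gene counts here and in the regional test (977), so they are not separate checks.

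Of the 102 named genes with a call, 36 kept it in every setting without a block. The other 66 lost it at least once. In most settings this was so for 5: Col13a1 (21 of 25), Rhbg (20 of 26, and uncalled with a reversed sign in 1 more), and Foxa2, Col9a3 and Phlda3 (17 of 26 each). Fgf5, not called, turned positive with cyclic loess (0.04), median scaling over detected probes (0.09) and without posterior replicate 2 (0.15), with values of -0.52 to 0.15 over single arrays left out. Xist did so with array weights (0.11), without anterior replicate 3 (0.24) and without posterior replicate 1 (0.15), over a range of -0.34 to 0.24. Rhbg turned to -0.06 in the knockout arrays with median scaling over all probes. The causes were not tested. Where a gene was at background in a group, its change is a bound.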

Other observations

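Groups of general cell state held 0 to 3 called genes each. Of 18 cell cycle genes, 1 was higher (Cdkn1a, the p21 inhibitor, log2 change 0.97) and 1 lower (Mcm6, a replication helicase subunit, -0.5), with a median of 0.08. Mcm6 was represented by 3 probes, and the others changed by -0.17 and 0.24. Of 11 p53 targets, Cdkn1a and Phlda3 (0.71) were higher and none was lower (median 0.17); their calls were lost in 12 and 17 of 26 settings. Of 16 glycolysis and hypoxia genes, Egln3 (1.23) and Ddit4 (0.98) were higher and Ankrd37 (-0.72) lower (median -0.12). These are hypoxia-response genes, and no tested glycolytic enzyme was called. Hk1, Hk2, Gpi1, Gapdh and Eno1 carried no named probe and were not measured here. Immediate-early and stress genes gave 2 higher of 12, Egr1 (1.02) and Ddit3 (0.71), and a median of 0.1. The other Ddit3 probe changed by -0.21, and the calls of Egr1 and Ddit3 were lost in 12 and 9 of 26 settings. None of 11 housekeeping genes was called (median 0.1), and none of 4 X-inactivation and Y-linked genes, with 0 in either group at an unadjusted limma p under 0.05. Beside 9.03% of all genes, the called shares were 18.8% for glycolysis and hypoxia, 18.2% for p53 targets, 16.7% for immediate-early and 11.1% for cell cycle genes, each resting on 2 or 3 genes.

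Of 21 Eph, ephrin and guidance genes, 6 were higher and 3 lower (median -0.03); Efna1 read 6.11, 6.3 and 6.71 in anterior and 8.08, 8.42 and 8.31 in posterior arrays (1.89, SE 0.19), and its family's receptor Epha1 rose by 1.74. Of 22 collagens, laminins and integrins, 3 were lower (Itga6 -0.91, Col13a1 -0.78, Col9a3 -0.62) and none higher (median -0.21). Col2a1, a collagen outside this list, had a larger fall (-1.9). The calls of Col13a1 and Col9a3 were lost in 21 of 25 and 17 of 26 settings, and 1 to 2 genes of the list were lower when single arrays were left out. In the epithelial to mesenchymal list of 19, Twist2 (1.74) and Snai1 (0.87) were higher and Snai2 (-1.13) and Twist1 (-0.71) lower, so members of both families lay on opposite sides, and Cdh1, E-cadherin, changed by -0.1. Surface ectoderm genes gave 3 higher of 14 (Wnt6, Msx1 and Grhl3, median -0.04). The retinoic acid list gave 2 higher and 3 lower of 11 (median 0.03): Aldh1a2, which makes the signal, and Hoxb1, a target, were higher, and Cyp26a1, which degrades it, Meis1 and the receptor Rarb (-0.8) lower. Trophoblast genes gave 4 higher and 2 lower of 10 (median 0.17). Cdx2 and Hand1, both also genes of the posterior embryo, Plac1 (0.81) and Gzmd (0.49) were higher, Sox21 and Fgfr2 lower, and Rhox9, Bmp8b, Esx1, Prl2c2, Tpbpa and Gzmc were detected on none of the 6 arrays. Elf5 and Wnt7b were detected on 1 array of each region, and read highest on anterior replicate 3 (6.4 and 6.35).

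Sex-linked genes varied between replicates within each region. Eif2s3y, a Y-linked gene, read 8.57, 8.83 and 4.37 in knockout anterior and 8.04, 7.6 and 4.32 in knockout posterior arrays, so replicate 3 was at background in both regions. Kdm5d read 6.02, 5.98 and 4.34 against 6.04, 6.22 and 4.23. Xist read 9.06, 9.59 and 10.22 against 9.16, 9.52 and 10.02, and was detected on all 6 arrays. In control arrays Xist read 9.47, 4.36 and 8.12 in anterior and 9.2, 4.45 and 7.96 in posterior epiblast. Where 1 array of a group was at background for 1 of these genes, the array of that number was so in both regions. The labels do not say whether same-numbered arrays share embryos.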
